A study of Mus musculus with 14 samples.

Results

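The protocadherins described here are the 31 genes whose symbol starts with Pcdh in the expression tables, out of 26962 genes listed in any library. They fall into 1 alpha gene, 22 beta genes and 0 gamma genes of the clustered protocadherins, and 8 non-clustered protocadherins. An annotation of the mouse genome (GENCODE M21) holds 13 alpha, 22 beta, 22 gamma and 12 non-clustered symbols, so the beta cluster was covered whole. The other alpha genes, the gamma genes and Pcdh1, Pcdh11x, Pcdh15 and Pcdh19 were not analysed here. Genes entered by symbol alone, but the family was chosen with earlier results of these data known.

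Protocadherins form the largest group of the cadherin superfamily, with extracellular cadherin repeats that hold cells together through like-with-like binding. The clustered genes lie in tandem arrays in which single promoters are chosen by each neuron, giving it a surface code. The beta genes, most of them single-exon genes, have a promoter each. Non-clustered protocadherins stand alone in the genome, are best known from the developing nervous system, and several are also made by mesenchymal cells.

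RNA was sequenced from mouse embryonic fibroblasts of strain OG2/129SV that carried Oct4, Sox2, Klf4 and c-Myc in every group, the factors that turn fibroblasts into pluripotent cells. The Cdk9-DN groups received Cdk9-DN as well (DN for dominant negative), directed at the kinase that releases paused RNA polymerase II. The control groups received a control vector instead. Cells grew in embryonic stem cell medium with LIF and were taken 3, 4, 5 or 10 days after infection, which gave 14 libraries in 8 groups: each vector has 2 libraries on days 4, 5 and 10, and a single one on day 3. Each culture is a mixture of cells at different stages, and the labels do not say whether replicates were separate cultures, so a p-value speaks of the spread among these libraries alone, which may be technical.

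Values are FPKM, the fragments of a gene scaled by transcript length and by library size. Libraries listed 23236 to 24385 genes, and a gene that a library does not list has no value there. The share of all FPKM in the top 10 genes was 33.4% to 66.1%, except in control replicate 2 of day 5, where it was 76.1%. Replicates differed by a median of 0.135 to 0.174 (log2) over 3491 genes. Of the fibroblast markers, Dcn was listed in all 14 libraries, at 3.73 to 21.9 FPKM, and of the epithelial ones Krt18, Cldn3 and Cldn4 were. Cdk9 itself was not analysed here.

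The start regions of the 5 non-clustered genes on which the results turn are shown because these genes moved between days 4 and 10. Pcdh9 moved as well, and its start regions are described but not printed. Each holds 250 bases before and 50 after the annotated start, taken from RefSeq on build GRCm38.p6 and written 5′ to 3′ on the gene's strand. Capitals mark matches on either strand to GGGCGG (a GC box), CACCTG (the E-box bound by Snail and Zeb factors), TATAAA, the core promoter element, or the AP-1 site (TGA, any base, TCA).
Pcdh7, chr5:57717831-57718130, plus strand: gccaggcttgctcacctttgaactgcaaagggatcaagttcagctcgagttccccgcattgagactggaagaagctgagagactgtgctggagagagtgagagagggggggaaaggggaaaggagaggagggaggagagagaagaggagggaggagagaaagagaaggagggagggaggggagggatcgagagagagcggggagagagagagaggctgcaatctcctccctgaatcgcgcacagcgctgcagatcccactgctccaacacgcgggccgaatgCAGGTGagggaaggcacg
Pcdh10, chr3:45378148-45378447, plus strand: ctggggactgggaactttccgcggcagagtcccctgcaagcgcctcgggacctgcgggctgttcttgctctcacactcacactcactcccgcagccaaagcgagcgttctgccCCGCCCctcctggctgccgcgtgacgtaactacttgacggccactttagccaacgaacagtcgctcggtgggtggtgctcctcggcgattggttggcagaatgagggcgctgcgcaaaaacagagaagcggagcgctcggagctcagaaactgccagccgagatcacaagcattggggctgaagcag
Pcdh18, chr3:49757267-49757566, minus strand: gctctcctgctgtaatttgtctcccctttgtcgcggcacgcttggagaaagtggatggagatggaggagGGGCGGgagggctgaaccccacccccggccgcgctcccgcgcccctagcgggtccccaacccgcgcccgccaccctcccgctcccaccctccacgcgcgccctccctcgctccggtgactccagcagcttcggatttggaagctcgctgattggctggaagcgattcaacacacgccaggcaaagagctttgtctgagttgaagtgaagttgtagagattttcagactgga
Pcdh17, chr14:84443313-84443612, plus strand: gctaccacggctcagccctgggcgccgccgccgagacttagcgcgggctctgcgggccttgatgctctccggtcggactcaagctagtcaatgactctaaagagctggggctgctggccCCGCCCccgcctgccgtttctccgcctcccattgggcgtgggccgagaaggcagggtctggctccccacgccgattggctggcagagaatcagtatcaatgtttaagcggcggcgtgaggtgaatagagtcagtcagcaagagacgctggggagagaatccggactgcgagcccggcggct
Pcdh20, chr14:88471347-88471646, minus strand: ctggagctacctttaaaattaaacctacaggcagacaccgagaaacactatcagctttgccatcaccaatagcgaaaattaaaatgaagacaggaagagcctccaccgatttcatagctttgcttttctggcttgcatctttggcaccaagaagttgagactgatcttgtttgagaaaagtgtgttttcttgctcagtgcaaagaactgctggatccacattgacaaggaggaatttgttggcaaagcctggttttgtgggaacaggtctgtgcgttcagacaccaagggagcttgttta

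Pcdh10, Pcdh18 and Pcdh17 held 1 GC box each, as did 35.7% of 32851 start regions in the reference, and Pcdh7 and Pcdh20 held none. Pcdh7 held 1 CACCTG match, after its start, against 20.2% of all start regions. None of the 5 held TATAAA (13.6% of all) or the AP-1 site (7.81%). These start regions also differed in CG dinucleotides: 26 in Pcdh17, 24 in Pcdh10, 23 in Pcdh18, 11 in Pcdh7 and 4 in Pcdh20, against a median of 7 over all start regions. The start regions of Pcdh9, which are not printed, held 18 and 19 CG dinucleotides and no match to any of these motifs. A match is a description of letters in this window and not a binding site.

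The protocadherins split by level. Of the 31 genes, 10 reached 1 FPKM in 2 or more of the 12 libraries with replicates and were tested: Pcdh7, Pcdh10, Pcdh18, Pcdh17, Pcdh20 and Pcdh9 among the non-clustered and Pcdhb17, Pcdhb18, Pcdhb20 and Pcdhb22 among the beta genes. In 18 of the 31 no group mean reached 0.5 FPKM. The remaining 3, Pcdhb14, Pcdhb16 and Pcdhb19, ranged over 0.0774 to 0.717, 0.121 to 0.538 and 0.143 to 0.622 FPKM. In control cells of day 4 Pcdh10 was the highest member at 22.97 ± 1.05 FPKM, followed by Pcdh7 at 15.6 ± 0.0501 and Pcdh18 at 6.87 ± 0.105 (SD, n = 2). Below them stood Pcdhb22 at 1.81 ± 0.18, Pcdh20 at 1.48 ± 0.245, Pcdhb17 at 1.37 ± 0.156 and Pcdh17 at 1.37 ± 0.0267 (SD, n = 2), whose library ranges overlapped for Pcdh20, Pcdhb17 and Pcdh17. The deposited bounds imply a median of 574 fragments behind a value of Pcdh7, 573 for Pcdh10, 337 for Pcdh18 and 140 for Pcdh17, but only 21.9 for Pcdh9 and 22.5 for Pcdhb18.

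**Figure D1:**
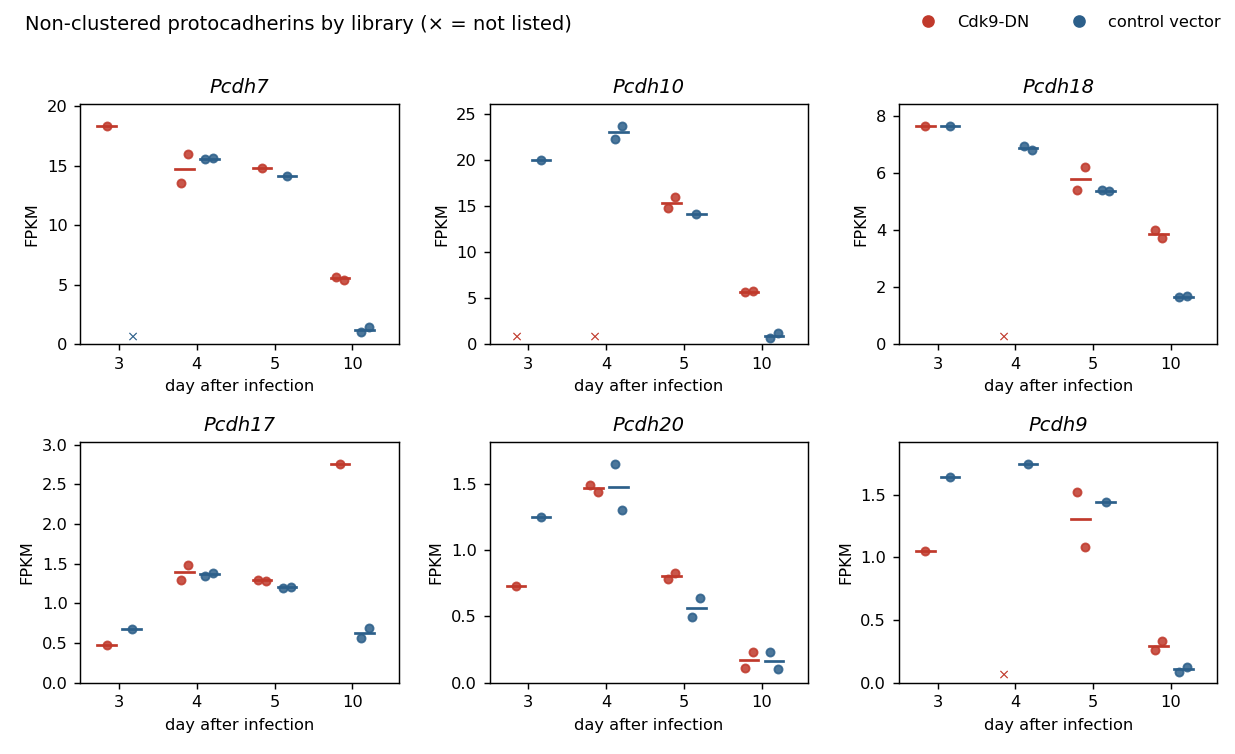
FPKM (linear axis from 0, a scale of its own per gene) of 6 non-clustered protocadherins against day after infection, 1 point per library and a bar at the group mean, Cdk9-DN left of control vector; a cross marks a group in which no library lists the gene, and a single point at days 4 to 10 means that 1 of the 2 libraries lists it. At day 10 the Cdk9-DN libraries lie above the control libraries for Pcdh7, Pcdh10, Pcdh18, Pcdh17 and Pcdh9, and both vectors overlap for Pcdh20.

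The first comparison asked what became of the protocadherins as control cells were reprogrammed from day 4 to day 10. The non-clustered genes that were expressed fell, all 6 of those tested, most of all Pcdh10 and Pcdh7. Among the beta genes Pcdhb22 fell, Pcdhb18 rose, and Pcdhb17 and Pcdhb20 did not pass. Of the 10 members tested 7 were called lower and 1 higher (limma, adjusted p under 0.05), where 21.8% of the 5814 genes tested were called lower and 28.2% higher. The median log2 change was -0.85 over the 10 members and 0.07 over all genes tested. A member that was high on some days alone could pass the filter on low values through that level. Pcdh20 did so through day 4, Pcdh9 through days 4 and 5, Pcdhb18 through day 10 and Pcdhb20 through days 5 and 10. The counts and the median are therefore a description. Without control replicate 2 of day 4, 5 of 9 members were called. Bulk libraries cannot tell fewer cells of a type from less RNA per cell.

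Pcdh10 (chromosome 3, 45182320 to 45238488 on mm9) is an adhesion molecule that binds the WAVE actin regulator and is silenced in several tumours. It had 0.678 and 1.20 FPKM in the control libraries of day 10, against 22.2 and 23.7 FPKM at day 4. The days do not overlap, and the log2 change was -3.64 (SE 0.138, adjusted p = 2.53e-05, limma). Pcdh7 (chromosome 5, 58109260 to 58520590), the protocadherin first cloned from brain and heart, had 1.06 and 1.43 FPKM at day 10, against 15.5 and 15.6 FPKM at day 4 (-2.89, SE 0.116, adjusted p = 2.99e-05). Pcdh18 (chromosome 3, 49547218 to 49561238), which in the mouse binds the adaptor Dab1, had 1.65 and 1.69 FPKM at day 10, against 6.94 and 6.80 FPKM at day 4 (-1.56, SE 0.0779, adjusted p = 2.04e-05). All 3 genes were separated between the days by far more than their replicates differed.

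Pcdh17 (chromosome 14, 84843370 to 84936867), which in the mouse organises presynaptic and axonal contacts, had 0.565 and 0.69 FPKM in control cells at day 10, against day 4 values of 1.35 and 1.39 FPKM (-0.54, SE 0.078, adjusted p = 0.00169). Pcdh20 (chromosome 14, 88864554 to 88871203) had 0.231 and 0.103 FPKM at day 10, against day 4 values of 1.65 and 1.30 FPKM (-1.08, SE 0.105, adjusted p = 0.000144). It was also the 1 member called between days 4 and 5 in control cells, with 0.492 and 0.637 FPKM at day 5 (-0.66, adjusted p = 0.0194; 3.19% of 5951 genes were called lower). This early call ended with a pseudocount of 0.1 (adjusted p = 0.0812), without control replicate 1 of day 4 (0.0976) and without control replicate 1 or 2 of day 5 (0.0815 and 0.0643). Its adjusted p ranged over 0.014 to 0.0976 in all alternatives. Over the same days in control cells Pcdh10 changed by -0.66, with 1 library at day 5, and Pcdh18 by -0.3 (adjusted p = 0.0976, limma). Neither passed in the fit of all 12 libraries, so a fall by day 5 was not particular to Pcdh20. Pcdh20 passed the filter on low values through day 4 alone and Pcdh9 through days 4 and 5 alone, so their changes from day 4 are a description. In Cdk9-DN cells 0 of 7 members were called between days 5 and 4, where 3.28% of 5906 genes were. Of the 7, 2 (Pcdh20 and Pcdhb20) had an unadjusted p under 0.05 (limma). Pcdh9 (chromosome 14, 93414731 to 94287951) had 0.086 and 0.126 FPKM at day 10 and 1.74 FPKM in the 1 library of day 4 that lists it (-1.31, SE 0.157, adjusted p = 0.00338).

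In Cdk9-DN cells the same interval gave smaller changes for Pcdh7 and a change the other way for Pcdh17, while Pcdh20 fell about as it did in control cells. Of 7 members tested between days 10 and 4, 4 were higher and 2 lower, where 24.5% and 13.5% of 5816 genes were. Their median log2 change was 0.32, against 0.11 over all genes. These values too are a description. Pcdhb18 passed the filter on low values through day 10, Pcdhb20 through days 5 and 10 and Pcdh20 through day 4. Pcdh7 had 5.68 and 5.43 FPKM at day 10, against 13.5 and 15.9 FPKM at day 4 (-1.26, SE 0.116, adjusted p = 0.00092). Pcdh17 had 2.76 FPKM in the 1 Cdk9-DN library of day 10 that lists it, against 1.30 and 1.49 FPKM at day 4 (0.65, SE 0.0956, adjusted p = 0.00267). Pcdh20 had 0.111 and 0.23 FPKM at day 10, against 1.49 and 1.43 FPKM at day 4 (-1.08, SE 0.105, adjusted p = 0.000258).

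Pcdh10, Pcdh18 and Pcdh9 were listed by no Cdk9-DN library of day 4, so days 10 and 5 were compared for them, a choice made after seeing which libraries list them. Pcdh10 in Cdk9-DN cells had 5.67 and 5.75 FPKM at day 10, against 14.7 and 16.001 FPKM at day 5 (-1.29, SE 0.138, adjusted p = 0.00172). In control cells the log2 change over these days was -2.98 (SE 0.169, adjusted p = 9.59e-05), with 1 library at day 5. Pcdh18 in Cdk9-DN cells had 4.02 and 3.71 FPKM at day 10, against 5.41 and 6.21 FPKM at day 5 (-0.48, SE 0.0779, adjusted p = 0.00434), and control cells changed by -1.26 (adjusted p = 4.99e-05). Pcdh9 in Cdk9-DN cells had 0.258 and 0.33 FPKM at day 10, against 1.52 and 1.08 FPKM at day 5 (-0.83, SE 0.128, adjusted p = 0.0114), a call that ended without Cdk9-DN replicate 1 of day 10 (adjusted p = 0.06, over a range of 0.00588 to 0.06). Over these days 5 of 10 members were lower and 3 higher in Cdk9-DN cells (12.4% and 22.5% of 5783 genes). In control cells 7 of 10 were lower and 0 higher (22.5% and 27.3% of 5798 genes). Pcdh9 passed the filter on low values through days 4 and 5 alone and Pcdhb18 through day 10 alone. The counts over these days and the fall of Pcdh9 are thus a description. Without Cdk9-DN replicate 1 of day 5 the Cdk9-DN count was 5 of 9, and without control replicate 2 of day 5 the control count was 4 of 8.

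The comparison of Cdk9-DN with control vector asked whether these genes differed between the vectors on each day. At days 4 and 5 they did not pass. At day 10 the 4 strongest differences of the family were in Pcdh10, Pcdh7, Pcdh17 and Pcdh18, each higher with Cdk9-DN. Of the 7 members tested at day 4 and the 10 tested at day 5, 0 were called (0.0336% of 5950 and 0.169% of 5902 genes were), and 0 had an unadjusted p under 0.05. At day 10, 6 of 10 were called higher and 0 lower, where 14.5% of 5740 genes were called higher and 14.4% lower. Without Cdk9-DN replicate 1 of day 10, 3 of 9 were called: Pcdh7, Pcdh10 and Pcdh18. The median difference at day 10 was 0.47 over the 10 members and 0 over all genes.

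**Figure D2:**
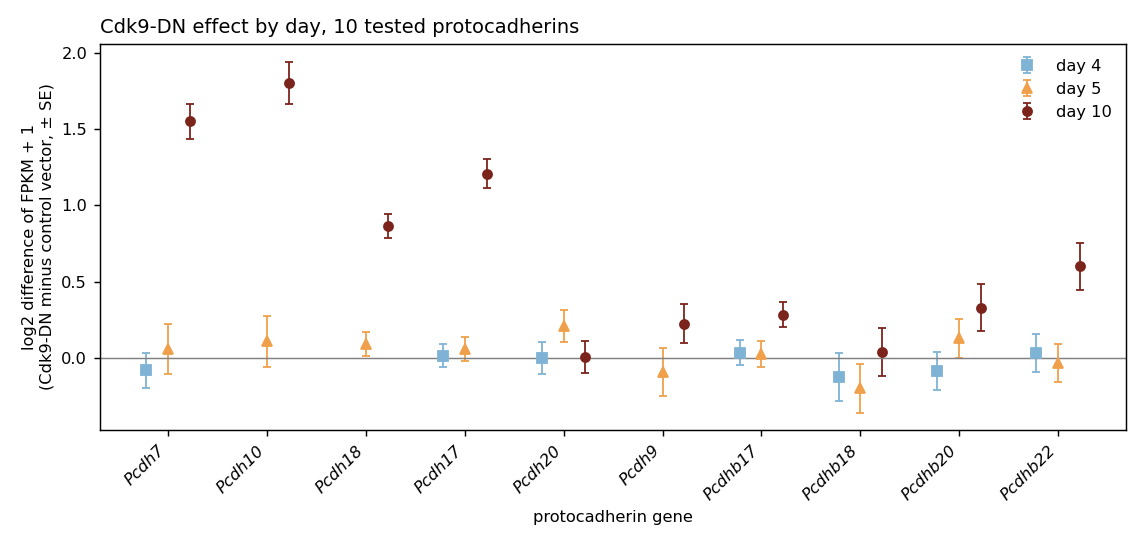
Log2 difference of FPKM + 1, Cdk9-DN minus control vector, for the 10 tested protocadherins at days 4, 5 and 10; points are limma estimates, bars ± SE, and a missing point means that the day could not be tested. The day 10 points of Pcdh7, Pcdh10, Pcdh18 and Pcdh17 lie at 0.86 to 1.81, and the points of days 4 and 5 lie between -0.20 and 0.21.

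At day 10 Pcdh10 had 5.67 and 5.75 FPKM in Cdk9-DN cells, against 0.678 and 1.20 FPKM in control cells (log2 difference 1.81, SE 0.138, adjusted p = 0.000948). At day 5 the vectors stood at 14.7 and 16.001 FPKM with Cdk9-DN and 14.2 FPKM in 1 control library (0.11, SE 0.169, adjusted p = 0.899). The day 10 libraries of Pcdh10 do not overlap between vectors. Pcdh7 had 5.68 and 5.43 FPKM with Cdk9-DN at day 10, against 1.06 and 1.43 FPKM in control cells (1.55, SE 0.116, adjusted p = 0.000883). Its values were 13.5 and 15.9 FPKM with Cdk9-DN and 15.5 and 15.6 FPKM with control vector at day 4 (-0.08, adjusted p = 0.968), where the libraries overlap. Pcdh18 had 4.02 and 3.71 FPKM with Cdk9-DN, against 1.65 and 1.69 FPKM in control cells (0.86, SE 0.0779, adjusted p = 0.000754). Pcdh17 had 2.76 FPKM in 1 Cdk9-DN library, against 0.565 and 0.69 FPKM in control cells (1.21, SE 0.0956, adjusted p = 0.000474), and without that library it had no value to test. In Pcdh7, Pcdh10 and Pcdh18 the level with Cdk9-DN at day 10 lay between that of control cells at day 10 and that of days 4 and 5, and in Pcdh17 it lay above every other library.

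Pcdh20 had 0.111 and 0.23 FPKM with Cdk9-DN at day 10 and 0.231 and 0.103 FPKM with control vector, and the libraries overlap (0.00, SE 0.105, adjusted p = 0.994). Pcdh9 had 0.258 and 0.33 FPKM with Cdk9-DN and 0.086 and 0.126 FPKM with control vector, ranges that do not overlap, and did not pass (0.23, SE 0.128, adjusted p = 0.283). Averaged over days 4, 5 and 10, Pcdh17 (0.43, SE 0.0487, adjusted p = 0.00544) and Pcdh7 (0.51, SE 0.0773, adjusted p = 0.0192) were called higher with Cdk9-DN, 2 of 7 members, where 4.23% of 5343 genes were called higher and 6.72% lower. Both averages come from day 10. At days 4 and 5 the differences were 0.02 and 0.06 for Pcdh17 and -0.08 and 0.06 for Pcdh7. Without Cdk9-DN replicate 1 of day 10 neither was called: Pcdh17 had no value, and Pcdh7 missed the threshold (0.50, adjusted p = 0.0593). Pcdh7 could not be tested without control replicate 2 or Cdk9-DN replicate 1 of day 5. The Pcdh7 call ended without either control library of day 4 (adjusted p = 0.0586 and 0.0596) or either Cdk9-DN library of day 10 (0.0593 and 0.0544), over a range of 0.0178 to 0.0596.

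The difference between days was itself tested. The Cdk9-DN effect at day 10 minus that at day 4 was 1.63 for Pcdh7 (SE 0.164, adjusted p = 0.00424) and 1.19 for Pcdh17 (SE 0.123, adjusted p = 0.00242), 2 of 7 members, where 7.95% of 5523 genes were called higher. Without Cdk9-DN replicate 1 of day 10, 1 of 6 was called, Pcdh7. Against day 5 it was 1.70 for Pcdh10 (SE 0.218, adjusted p = 0.0084), 1.49 for Pcdh7 (SE 0.201, adjusted p = 0.00958), 1.15 for Pcdh17 (SE 0.123, adjusted p = 0.00255) and 0.78 for Pcdh18 (SE 0.11, adjusted p = 0.00687), 4 of 10 members, where 8.75% of 5485 genes were called higher. For Pcdh20 it was 0.01 against day 4 (adjusted p = 0.989) and -0.20 against day 5 (adjusted p = 0.411). The 2 libraries of day 3 were not tested. There Pcdh18 stood at 7.66 FPKM with Cdk9-DN and 7.67 FPKM with control vector. Pcdh20 stood at 0.733 FPKM with Cdk9-DN and 1.25 FPKM with control vector, and Pcdh9 at 1.05 FPKM with Cdk9-DN and 1.64 FPKM with control vector.

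The beta genes were low throughout. Along chromosome 18 the cluster runs from Pcdhb1 to Pcdhb22 (37424652 to 37681073 on mm9). The mean over libraries was 0 to 0.29 FPKM in the first 15 genes and 0.293 to 1.81 FPKM in the last 7, a split made after seeing the values. Within the last 7 the means did not follow the order, with 0.33 FPKM in Pcdhb16, 1.42 in Pcdhb17, 0.293 in Pcdhb21 and 1.81 in Pcdhb22. Pcdhb1 was listed at 0 in all 14 libraries, and the alpha gene Pcdha3 was listed at 0 in 10 of 14 and at up to 0.0387 FPKM in the rest. Most beta genes share some sequence with other protocadherins: of the 50-base stretches of each beta gene's transcripts, 0% to 12% also occur in another protocadherin, with 3.6% in Pcdhb17, 3.71% in Pcdhb18, 5.47% in Pcdhb20 and 7.96% in Pcdhb22, against 0% in the 8 non-clustered genes. Reads that lie within such stretches match more than 1 gene, so values of single beta genes carry an uncertainty. The shares do not measure its size.

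**Figure D3:**
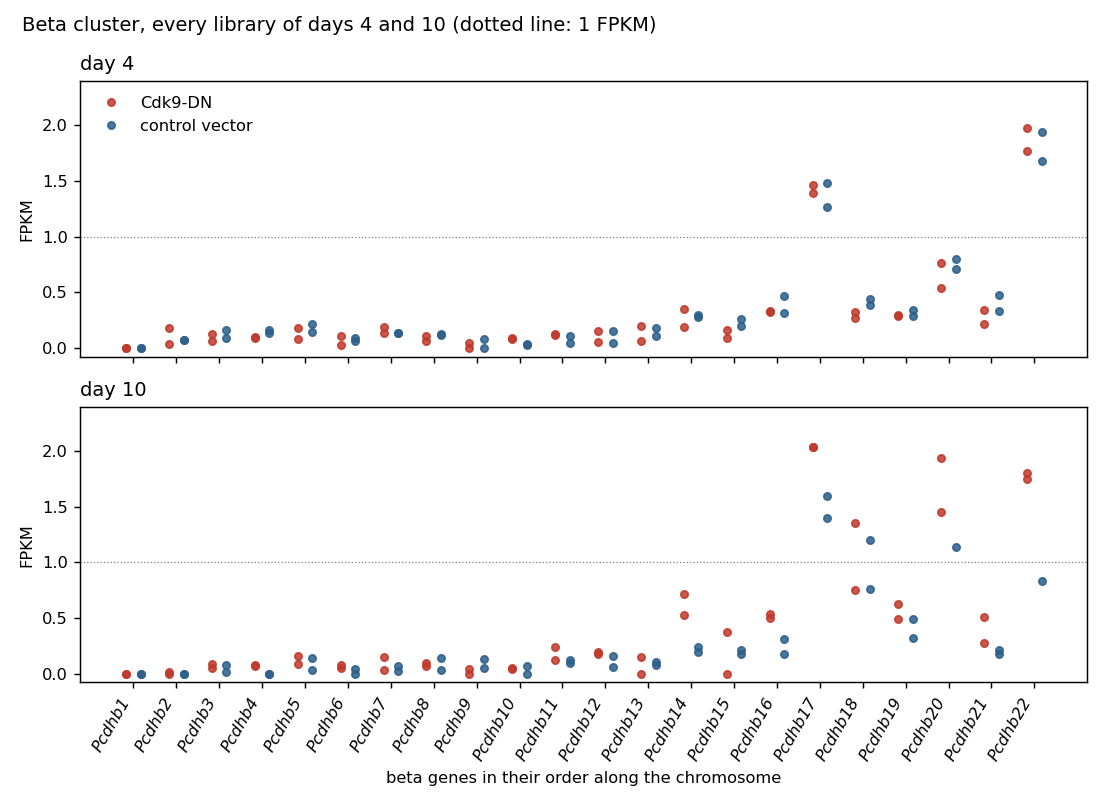
FPKM (linear axis) of the 22 beta protocadherins in their order along chromosome 18, at day 4 (upper panel) and day 10 (lower panel), 1 point per library, Cdk9-DN left of control vector; the dotted line is 1 FPKM. Points above 1 FPKM occur at Pcdhb17 and Pcdhb22 on day 4 and at Pcdhb17, Pcdhb18, Pcdhb20 and Pcdhb22 on day 10.

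Pcdhb22, the last gene of the cluster, had 1.804 and 1.75 FPKM with Cdk9-DN at day 10, against 0.834 FPKM in the 1 control library that lists it (0.60, SE 0.155, adjusted p = 0.0323). In control cells it changed by -0.61 between days 10 and 4 (1.68 and 1.94 FPKM at day 4; SE 0.155, adjusted p = 0.017, but 0.0655 without control replicate 2 of day 4), and in Cdk9-DN cells by -0.05 (adjusted p = 0.821). The Cdk9-DN effect at day 10 minus that at day 4 did not pass (0.57, adjusted p = 0.111). Pcdhb17 had 2.04 and 2.04 FPKM with Cdk9-DN at day 10, against 1.59 and 1.40 FPKM in control cells (0.28, SE 0.0843, adjusted p = 0.043), ranges that do not overlap. Both calls at day 10 were weak. That of Pcdhb22 held in 10 of 18 alternatives (adjusted p = 0.015 to 0.103) and that of Pcdhb17 in 5 of 21 (0.0317 to 0.156), both were lost without either Cdk9-DN library of day 10, and both missed the threshold without the filter on low values (0.0615 and 0.105).

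**Figure D4:**
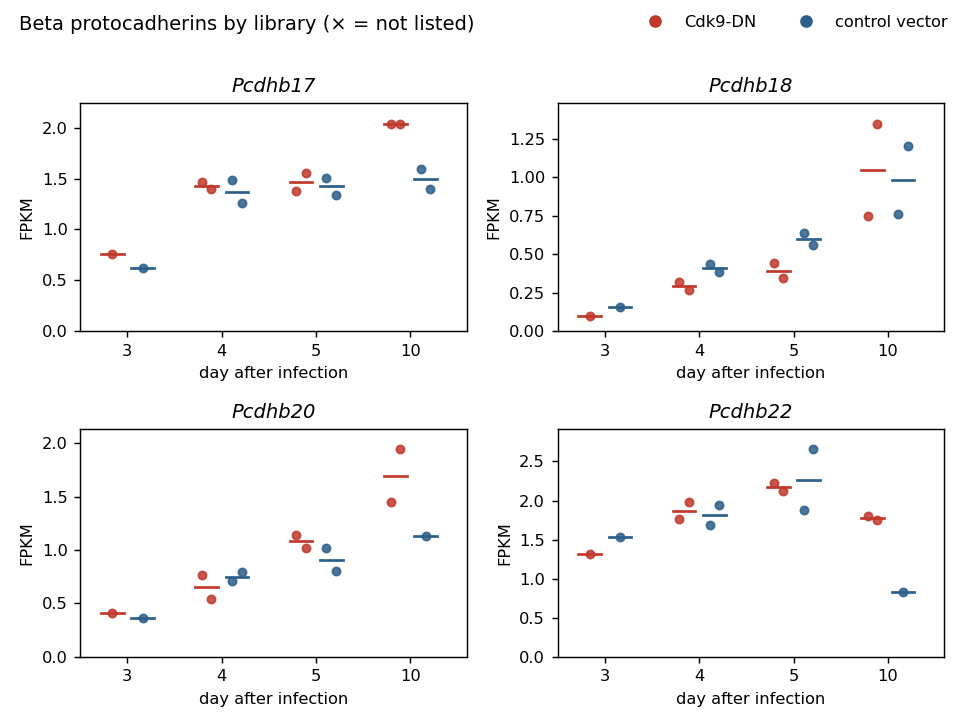
FPKM (linear axis from 0, a scale of its own per gene) of the 4 tested beta protocadherins against day after infection, 1 point per library and a bar at the group mean, Cdk9-DN left of control vector; the single control point of Pcdhb20 and Pcdhb22 at day 10 means that 1 of the 2 libraries lists the gene. The Cdk9-DN libraries of Pcdhb17 at day 10, both 2.04, lie above every other library, and the vectors overlap for Pcdhb18 at day 10.

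Pcdhb18 had 0.748 and 1.35 FPKM with Cdk9-DN and 0.765 and 1.20 FPKM with control vector at day 10, and the vectors overlap (0.04, SE 0.158, adjusted p = 0.897). It reached 1 FPKM at day 10 alone and passed the filter on low values through that day, so its changes from day 4 are a description: 0.65 with Cdk9-DN (0.319 and 0.268 FPKM at day 4; adjusted p = 0.0159) and 0.48 with control vector (0.439 and 0.383 FPKM at day 4; adjusted p = 0.038). Under quantile normalization both rises missed the threshold (0.25, adjusted p = 0.442, and 0.17, adjusted p = 0.567; ranges over the alternatives 0.00643 to 0.442 and 0.0142 to 0.567). Without control replicate 2 of day 10 the rise in control cells, called in 9 of 20 alternatives, was 0.32 (adjusted p = 0.184), and without Cdk9-DN replicate 2 of day 10 that in Cdk9-DN cells was 0.43 (adjusted p = 0.0628). Pcdhb20 had 1.45 and 1.94 FPKM with Cdk9-DN at day 10, against 1.14 FPKM in 1 control library (0.33, SE 0.155, adjusted p = 0.171). In Cdk9-DN cells it stood at 0.766 and 0.541 FPKM at day 4, a log2 change of 0.70 to day 10 (SE 0.127, adjusted p = 0.00627), which under quantile normalization was 0.45 (adjusted p = 0.053, range 0.00409 to 0.053). In control cells the change was 0.29 (adjusted p = 0.178). Pcdhb20 passed the filter on low values through days 5 and 10 alone, so its changes from day 4 are a description. Pcdhb17 changed by 0.32 in Cdk9-DN cells (adjusted p = 0.0209, range 0.0172 to 0.51) and by 0.07 in control cells (adjusted p = 0.505).

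The 12 beta genes listed in all 14 libraries summed to 4.49 and 5.35 FPKM with Cdk9-DN at day 10, against 3.45 and 3.81 FPKM with control vector. At day 4 the sums were 3.18 and 3.09 FPKM with Cdk9-DN and 3.62 and 3.497 FPKM with control vector, and at day 3 they were 1.75 and 2.08 FPKM in the single libraries of Cdk9-DN and control vector. At day 5 they were 3.25 and 3.42 FPKM with Cdk9-DN and 3.67 and 3.48 FPKM with control vector. The day 10 sums do not overlap between vectors, with Cdk9-DN higher. Those of days 4 and 5 do not overlap either, with control vector higher. The day 3 sums are the lowest of the 14. Without the filter on low values Pcdhb14 (0.41, adjusted p = 0.022), Pcdhb16 (0.29, adjusted p = 0.0436) and Pcdhb4 (0.10, adjusted p = 0.0236) were called higher with Cdk9-DN at day 10, beside Pcdh7, Pcdh10, Pcdh17 and Pcdh18. These are 7 of 30 members tested, where 8.36% of the 10577 genes tested without the filter were called higher. Pcdhb14 had 0.717 and 0.526 FPKM with Cdk9-DN, against 0.195 and 0.243 FPKM with control vector. Pcdhb4 had a group mean of at most 0.142 FPKM in every group, and the bounds imply a median of 2.41 fragments behind its values, so its level is close to what the depth can show.

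Other cadherin superfamily genes and protocadherin partners were few in the tables. Of 22 classical cadherins 13 were listed, and of the 5 tested at day 10 Cdk9-DN cells had 1 higher and 3 lower, where 14.5% of all genes tested were called higher and 14.4% lower. N-cadherin (Cdh2), which marks mesenchymal cells, had 9.35 FPKM in 1 Cdk9-DN library, against 2.57 and 2.54 FPKM in control libraries (1.54, SE 0.0604, adjusted p = 0.00042). Cdh6, a cadherin of kidney and neural crest, had 0.802 and 0.897 FPKM with Cdk9-DN, against 3.43 FPKM in 1 control library (-1.26, adjusted p = 0.00244). P-cadherin (Cdh3), an epithelial cadherin, had 0.904 and 0.811 FPKM with Cdk9-DN, against 2.17 and 1.66 FPKM (-0.65, adjusted p = 0.00894). Cdh9 had 0.508 and 0.451 FPKM with Cdk9-DN, against 1.23 and 1.20 FPKM with control vector (-0.58, adjusted p = 0.00588), and as it passed the filter on low values through those control libraries alone, its difference is a description. Of 25 other superfamily genes 12 were listed and 3 tested at day 10. Fat4, a giant cadherin of planar polarity, had 0.669 and 0.599 FPKM with Cdk9-DN, against 0.243 and 0.301 FPKM with control vector (0.36, adjusted p = 0.0129), and the calsyntenin Clstn2 had 1.03 and 0.62 FPKM, against 0.177 and 0.273 FPKM (0.57, adjusted p = 0.0369). The desmosomal cadherin Dsg2 had 2.70 FPKM in 1 Cdk9-DN library, against 5.63 FPKM in 1 control library (-0.84), and it passed the filter through these 2 libraries alone. With 1 library on each side its spread came from the other groups, so this call (adjusted p = 0.0097) has no replicate check.

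Over the course of control cells from day 4 to day 10, Cdh2 (-3.31, adjusted p = 7.42e-06), Cdh20 (-1.75, adjusted p = 0.000198), Fat4 (-1.95, adjusted p = 5.47e-06) and Clstn2 (-0.88, adjusted p = 0.00954) fell, while Dsg2 (2.64, adjusted p = 3.99e-05), Cdh9 (1.05, adjusted p = 0.000138) and Cdh6 (0.999, adjusted p = 0.00212) rose, in 2 classical cadherins each way of 5 and in 2 lower and 1 higher of 3 other superfamily genes, where 21.8% of all genes tested were called lower and 28.2% higher. Dsg2 and Cdh9 passed the filter through day 10 alone and Fat4 through days 4 and 5 alone, so their changes are a description. Cdh20 and Clstn2 were listed by 1 control library of day 4, and Cdh6 and Dsg2 by 1 control library of day 10. Of 15 binding partners 4 were listed and 2 tested at day 10. Wasf1, a WAVE protein that links such receptors to actin, had 20.4 and 21.1 FPKM with Cdk9-DN, against 12.4 FPKM in 1 control library (0.69, adjusted p = 0.0215), and Pik3r1, a regulatory subunit of PI3 kinase, had 2.84 and 3.30 FPKM, against 1.55 and 1.77 FPKM (0.61, adjusted p = 0.0408). Both were lower at day 10 than at day 4 in control cells. Wasf1 had 12.4 FPKM in 1 library of day 10, against 21.3 FPKM in 1 library of day 4 (-0.73), a difference without a replicate check. Pik3r1 had 1.55 and 1.77 FPKM at day 10, against 6.18 FPKM in 1 library of day 4 (-1.43). Of 12 catenins 3 were listed, and Pkp2, the 1 tested at day 10, did not pass (-0.66, adjusted p = 0.0865). In control cells between days 10 and 4 neither Pkp2 (0.40, adjusted p = 0.165) nor Ctnna1 (-0.01, adjusted p = 0.947) passed. Of 13 cohesin and CTCF genes, which shape the choice of clustered promoters, 2 were listed. Rad21 did not pass at day 10 with 49.9 FPKM in 1 Cdk9-DN library, against 50.8 and 56.4 FPKM with control vector (-0.10, adjusted p = 0.403), or in control cells between days 10 and 4 (-0.06, adjusted p = 0.565). Of 11 silencing factors of the clusters 2 were listed and 0 tested.

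Markers of other cell states moved on the same days. Of 10 fibroblast markers 7 were listed in any library. Dcn stood at 12.5 and 13.997 FPKM with Cdk9-DN at day 10, against 3.73 and 4.42 FPKM with control vector, Twist1 at 23.7 and 22.2 FPKM, against 11.6 and 13.4 FPKM, and Thy1 at 18.0 and 16.8 FPKM, against 16.3 FPKM in 1 control library. Snai2 stood at 0.842 and 0.751 FPKM with Cdk9-DN, against 0.572 and 0.616 FPKM, and Pdgfra at 0.383 and 0.429 FPKM, against 0.364 and 0.29 FPKM. Of 10 epithelial markers 7 were listed, and the 3 listed in all libraries summed to 58.5 to 65.2 FPKM with Cdk9-DN at day 10, against 262 to 271 FPKM with control vector. Of 10 pluripotency markers 8 were listed, and the 5 listed in all libraries summed to 19.7 to 20.04 FPKM, against 45.5 to 53.4 FPKM. Of 10 neural markers 5 were listed, and 4 summed to 13.7 to 13.98 FPKM with Cdk9-DN at day 10, against 2.60 to 2.71 FPKM with control vector. That sum was mostly Nefl (13.3 and 13.5 FPKM with Cdk9-DN, against 2.02 and 1.798 FPKM), while Nefm was listed at 0 in both Cdk9-DN libraries. Of 7 endothelial markers 4 were listed, and the 2 in all libraries summed to 0.957 to 0.974 FPKM, against 3.68 to 3.81 FPKM. That sum was mostly Cldn5 (0.92 and 0.956 FPKM with Cdk9-DN, against 3.77 and 3.598 FPKM with control vector), while Cdh5 stayed at or under 0.078 FPKM. Tek went the other way, with 23.2 FPKM in 1 Cdk9-DN library, against 13.9 FPKM in 1 control library. Of 7 macrophage markers 5 were listed. Lyz2 was listed at 0 in both Cdk9-DN libraries of day 10 and at 0.0349 and 0.133 FPKM in control libraries, while Cd68 stood at 8.70 FPKM in 1 Cdk9-DN library, against 42.0 and 39.0 FPKM in control libraries. The part of these shifts in cell state in the protocadherin differences was not tested.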

How the data were processed

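RNA sequencing tables of 14 libraries were used, 1 table per library. Per the labels, the deposited values are FPKM computed by the authors, and each table holds a lower and an upper bound, which lie 2 SD around the value. Per the submitters' processing notes, the tools were CASAVA 1.8.2, TopHat2 2.0.10 and Cufflinks 2.2.1, and the genome mm9 with NCBIM37. No read counts entered. The fragments behind a value were derived from its upper bound, which assumes that the bounds cover counting error alone. Interval starts in the tables count from 0 and are given here from 1: of 20138 shared identifiers, 13399 matched an annotated length that way and 262 the other way.

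Values of 16 identifiers with several entries were summed, and 1 entry with a failed status was left out. Values of exactly 0 were kept. Of 26962 genes, 7460 reached 1 FPKM in 2 or more of the 12 libraries with replicates. A cell means model of 6 groups was fitted on log2(FPKM + 1) with limma 3.58.1 under R 4.3.3, using for each gene its listing libraries, a minimum of 2 residual degrees of freedom, an intensity trend and 1.15 prior degrees of freedom. The pseudocount of 1 understates changes of low genes. P-values are two-sided and adjusted by the Benjamini-Hochberg method across the genes tested in each comparison, and adjusted p under 0.05 was called. A group with 1 listing library takes its spread from the other groups. The fit was tested on simulated data. Days 10 and 5 were compared after seeing the data.

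Named genes were all members that passed the filter, others that reached 0.5 FPKM in a group mean, and per gene list up to 3 called genes with the largest difference, or up to 2 of the highest mean. For the classical cadherins all called genes were named, which adds Cdh9 at day 10 and Cdh6 in control cells from day 4 to day 10. Pcdhb4, Pcdhb1 and Pcdha3 were named after their values were seen. Members, lists and motifs were chosen with earlier results of these data known. The alternatives were other pseudocounts, filters and scalings, a replicate block, separate days, the day 3 pair and leaving out each library. Figures were drawn with Python 3.11.15, pandas 2.3.3 and matplotlib 3.10.9.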

Additional observations from a re-analysis of the deposited data

Results flagged for a closer look

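The Cdk9-DN effect differed between days, by a test of the difference itself (limma), in 4 protocadherins. Between day 10 and day 4 it was larger at day 10 by 1.63 for Pcdh7 and by 1.19 for Pcdh17 on the log2 scale. Between day 10 and day 5 it was larger at day 10 by 1.70 for Pcdh10, by 1.49 for Pcdh7, by 1.15 for Pcdh17 and by 0.78 for Pcdh18. Each of these differences stayed past the threshold in every alternative that gave a value, 17 to 19 for each, with Pcdh17 resting on 1 Cdk9-DN library of day 10. The Pcdh17 values of that library have bounds of 2.47 to 3.05 FPKM, against 0.426 to 0.704 and 0.541 to 0.838 FPKM in the control libraries. No group holds enough libraries for a test of single outlying libraries.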

How the results depend on the processing

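Of 44 called differences of single protocadherins, 31 stayed called in every alternative that gave a value, and 0 changed sign where a call was made. Those lost under some alternative were mostly of Pcdhb17, Pcdhb18, Pcdhb20 and Pcdhb22. The number of members called moved by more than 1.5 times, or to or from 0, in these cases. For control vector, day 5 against day 4, it was 0 with a pseudocount of 0.1 and 2 without the filter on low values, against 1. For Cdk9-DN, day 10 against day 4, it was 3 under quantile normalization, against 6. Among genes listed in all 12 libraries just 3 members were left to test, Pcdh20, Pcdhb17 and Pcdhb18. Pcdh7, Pcdh10, Pcdh17 and Pcdh18 were not among them, so this setting could not test their differences. The number was 0 for the Cdk9-DN effect at day 10, averaged, day 10 minus day 4 and day 10 minus day 5, 2 and 1 for control vector day 10 against days 4 and 5, and 3 for Cdk9-DN day 10 against each of days 4 and 5. It was 3 for the effect at day 10 in a separate fit of that day, which tested 7 members, and 1 for the averaged effect with the day 3 pair. Leaving out 1 library gave 3 to 6 for the effect at day 10, 0 to 2 averaged, 0 at days 4 and 5, 1 to 2 for day 10 minus day 4, 3 to 4 for day 10 minus day 5, 0 to 2 for control vector day 5 against day 4, 5 to 8 for control day 10 against day 4, 4 to 7 for control day 10 against day 5, 4 to 6 and 5 to 8 for Cdk9-DN day 10 against days 4 and 5, and 0 for Cdk9-DN day 5 against day 4. The lowest values came without Cdk9-DN replicate 1 of day 10 for the effect at day 10 (3) and averaged (0), without control replicate 2 of day 4 for control day 10 against day 4 (5), without control replicate 2 of day 5 for control day 10 against day 5 (4) and without Cdk9-DN replicate 1 of day 5 for Cdk9-DN day 10 against day 5 (5). Replicate numbers shared between vectors did not pair the libraries (correlations of deviations 0.0205, 0.0653 and -0.0168 at days 4, 5 and 10). With the replicate block the effect at day 10 had 4 members called, and the other numbers were as without it. Scaling moved the median of all genes between days: control vector day 10 against day 4 had 0.07 as deposited, -0.04 when scaled by median of ratios and -0.11 after quantile normalization, and Cdk9-DN had 0.11, -0.02 and -0.06. Calls for control vector were 1639 higher and 1268 lower as deposited, 1321 and 1613 by median of ratios and 1055 and 1639 by quantiles; for Cdk9-DN they were 1423 and 785, 1036 and 1130, and 778 and 1063. Depth limits the beta genes: in Pcdhb18 a value rests on a median of 22.5 implied fragments.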
